A study of Mus musculus with 2 samples.

Results

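The data are droplet single-cell RNA counts from germinal center B cells of mouse spleen, and the cells described are cell barcodes with few RNA molecules and almost no mitochondrial RNA. A barcode belonged to this class, called low-mitochondrial below, if it had at least 500 genes, 1000 to 5000 UMIs (unique molecular identifiers, tags that mark single captured RNA molecules) and under 2.5% of its UMIs from the 13 mitochondrially encoded genes. The class held 111 barcodes, 51 in library 1 and 60 in library 2, which was 1.66% of the 6703 barcodes of this depth and gene count and a small part of the 16633 barcodes deposited. All cells came from 1 group, splenic germinal center B cells, sorted from C57BL/6J mice aged 8 weeks that had been immunized with SRBC (sheep red blood cells, a standard antigen for raising germinal centers). The group has no untreated or unimmunized counterpart, and the comparisons are between classes of barcodes within the same library. Nothing in the labels ties each of the 2 libraries to its own animal. The p-values therefore measure only how far the differences between classes vary from library to library, which may be technical.

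The class was set against 2 others. The first, called shallow, had the same limits on genes and UMIs but 7% to 15% mitochondrial UMIs, and held 640 barcodes (402 in library 1 and 238 in library 2). The second, called deep, had at least 500 genes, over 5000 UMIs and at most 10% mitochondrial UMIs, and held 2356 barcodes (1324 in library 1 and 1032 in library 2). The barcodes were chosen by their UMIs, genes and mitochondrial share, so these are given as a description: the median mitochondrial share was 0.668% and 0.464% in the low-mitochondrial barcodes of libraries 1 and 2, 12.8% and 12.9% in the shallow barcodes, and 6.97% and 6.90% in the deep barcodes. Median depth was 2083 and 1831 UMIs in the low-mitochondrial barcodes, 3855 and 3614 UMIs in the shallow barcodes, and 17875 and 17747 UMIs in the deep barcodes. Thus the shallow barcodes were deeper than the low-mitochondrial ones within the shared range. At a fixed 700 non-mitochondrial UMIs per barcode, the median number of genes was 437 and 453 in the low-mitochondrial class, 492 and 501 in the shallow class, and 472 and 483 in the deep class. The libraries held 75121538 and 61874342 UMIs, and the low-mitochondrial class accounted for 117156 and 123457 non-mitochondrial UMIs of these. The libraries shared 22 barcode sequences, of which 0 belonged to the class.

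As background, the RNA of a cell is divided between compartments. Long noncoding RNAs such as Malat1 and Neat1 stay in the nucleus, and most messenger RNA lies in the cytoplasm. Mitochondrially encoded transcripts never leave the mitochondria. The shares of these groups in a droplet can differ with the compartments its RNA came from. They can also differ with how strongly a cell expresses each group, and neither was tested here. Germinal center B cells are B cells in rapid division whose antibody genes are being mutated, and tingible body macrophages clear those that die. Malat1, Aif1 (a gene of macrophages) and Plac8 (a gene of several immune cell types) were proposed as markers of the class on earlier results of these data, so their values are a description with no test.

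The proposed marker Malat1 was not high in these barcodes. Malat1 (ENSMUSG00000092341, chr19:5795690-5802672, mm10) had 0 UMIs in 28 of 51 low-mitochondrial barcodes of library 1 and in 38 of 60 of library 2, which is 54.9% (exact 95% interval 40.3% to 68.9%) and 63.3% (49.9% to 75.4%). In the shallow barcodes, Malat1 was at 0 in 2 of 402 and 3 of 238, or 0.498% and 1.26%. In the deep barcodes it was at 0 in 14 of 1324 and 10 of 1032, or 1.06% and 0.969%. After thinning each barcode to 700 non-mitochondrial UMIs, 72.5% and 76.7% of low-mitochondrial barcodes had no Malat1 UMI, against 0.498% and 1.68% of shallow and 12.1% and 15.1% of deep barcodes, so that the low-mitochondrial share was still the highest of the 3 classes in both libraries.

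The class was mixed in its Malat1. Between 1 and 9 Malat1 UMIs were found in 19 and 15 low-mitochondrial barcodes, and 10 or more in 4 and 7, with highest values of 111 and 119 UMIs. Those 4 and 7 barcodes held 208 of the 256 Malat1 UMIs of the class in library 1 and 496 of the 513 in library 2, or 81.2% and 96.7%. The summed level of Malat1 therefore rests on few barcodes: it was 2185 and 4155 CPM (UMIs of the gene divided by all non-mitochondrial UMIs of the class in that library, scaled to counts per 1e6) in the low-mitochondrial class, 21147 and 18551 CPM in the shallow class, and 4910 and 4045 CPM in the deep class. By sum the low-mitochondrial and deep values overlapped, whereas by share of barcodes without Malat1 they did not.

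**Figure D1:**
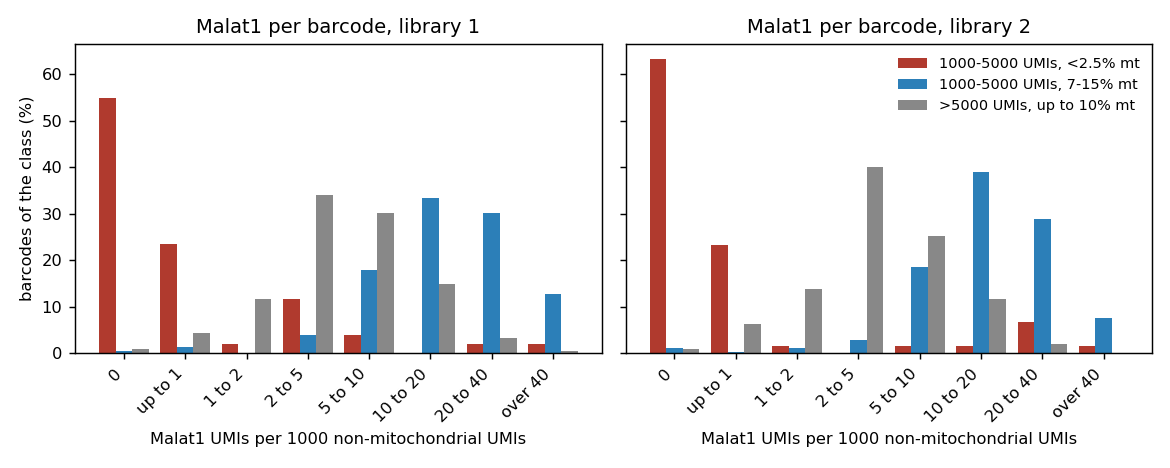
Share of barcodes (%, y axis) by the number of Malat1 UMIs per 1000 non-mitochondrial UMIs (x axis) in each library, with low-mitochondrial barcodes in red, shallow barcodes in blue and deep barcodes in grey. The red bars are highest at 0 (54.9% in library 1 and 63.3% in library 2), where the blue bars are 0.498% and 1.26%.

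Barcodes with and without Malat1 also differed in other respects, described here without a test. Xist, the nuclear RNA that silences an X chromosome, was found in 2 of 28 and 3 of 38 low-mitochondrial barcodes without Malat1, in 5 of 19 and 3 of 15 with 1 to 9 Malat1 UMIs, and in 4 of 4 and 6 of 7 with 10 or more. The median share of UMIs from ribosomal protein genes was 33.3% and 28.9% without Malat1, 32.1% and 25.5% with 1 to 9 UMIs, and 18.1% and 17.6% with 10 or more. The median mitochondrial share was 0.265% and 0.286% without Malat1, and 1.13% and 1.76% with 10 or more UMIs. Median depth was 2125 and 1957 UMIs without Malat1, 2050 and 1338 with 1 to 9, and 3780 and 2731 with 10 or more. The detection of Xist was not matched for this depth. Summed, 9 B lineage genes (described below) were at 9988 and 11446 CPM without Malat1. They were at 8824 and 9382 CPM with 1 to 9 Malat1 UMIs and at 18626 and 33104 CPM with 10 or more. None of 4 nuclear RNAs (Malat1, Neat1, Xist and Kcnq1ot1) was found in 25 of 51 and 35 of 60 low-mitochondrial barcodes, against 1 of 402 and 1 of 238 shallow and 8 of 1324 and 7 of 1032 deep barcodes.

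Over all barcodes of 1000 to 5000 UMIs, Malat1 differed by mitochondrial share. Below 0.5% mitochondrial UMIs (24 and 30 barcodes), Malat1 was at 1310 and 273 CPM, and 70.8% and 80.0% of barcodes had none. From 0.5% to 1.5% (13 and 20 barcodes), it was at 1364 and 2446 CPM, and from 1.5% to 2.5% (14 and 10 barcodes) at 4420 and 17584 CPM. In the last of these bins, 1 and 5 barcodes had 10 or more Malat1 UMIs. From 7% to 10% (61 and 42 barcodes), Malat1 was at 26391 and 19889 CPM. Just inside the limit, from 2% to 2.5%, the 6 and 5 barcodes had 1471 and 18668 CPM of Malat1, and just outside it, from 2.5% to 3%, the 4 and 5 barcodes had 4781 and 621 CPM. With so few barcodes no step in Malat1 could be placed at the limit.

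**Figure D2:**
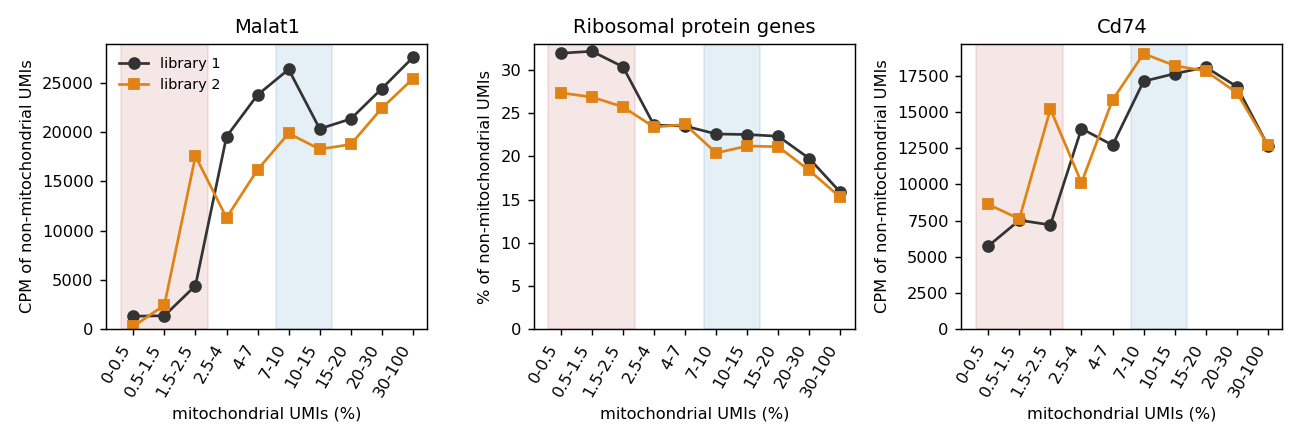
Level of Malat1 and Cd74 (CPM of non-mitochondrial UMIs) and share of UMIs from ribosomal protein genes (%) in all barcodes of 1000 to 5000 UMIs, by mitochondrial share (x axis, bins of unequal width), for library 1 (circles) and library 2 (squares), with the bins of the low-mitochondrial class shaded red and those of the shallow class shaded blue. Ribosomal protein genes make up 31.9% and 27.3% of UMIs in the lowest bin and 15.8% and 15.2% in the highest.

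Against the shallow barcodes, 4 of 8 nuclear RNAs other than Malat1 and Gm42418 (described below) were lower in the low-mitochondrial class. In the same comparison, 22 of 28 short messenger RNAs of the cytoplasm were higher, and 9 of 9 messenger RNAs of the B lineage were lower. The test was edgeR's quasi-likelihood test on UMIs summed per class and library, with the library as a block, and p-values adjusted by Benjamini-Hochberg over all genes tested (threshold 0.05). Of 8062 genes tested, 1829 (22.7%) passed, 1226 (15.2%) higher and 603 (7.48%) lower in the low-mitochondrial class, and 1792 of the 1829 had the same sign in both libraries. This split depends on the scaling between classes: without scaling factors, 876 genes were higher and 1439 lower, and the median log2 fold change of all genes was -0.43 instead of -0.04. It also turned with the barcodes compared: 548 genes were higher and 569 lower in barcodes of 1000 to 2500 UMIs, and 684 were higher and 749 lower against shallow barcodes of 7% to 10% mitochondrial share. Fold changes are therefore relative to that median. Counts of a gene list below are read against the shares of all genes just given.

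Among nuclear RNAs, with Malat1 and Gm42418 (a transcript from a locus with ribosomal RNA sequence, described below) left out, 4 of the 8 tested were lower (Xist, Kcnq1ot1, Neat1 and Tug1) and 0 higher, with a median log2 fold change of -1.79 (-1.13 with Lncpint, which had 0 UMIs in the class, set at its bound). After thinning, 5 were tested and 2 were lower. With Gm42418 kept in and no thinning, 5 of 9 were lower and 0 higher. Xist (chrX:103460366-103483254) was at 521 and 478 CPM in the low-mitochondrial class, against 3260 and 3011 CPM in the shallow class, with a log2 fold change of -2.27 ± 0.16 (SE; adjusted p = 7.2e-07). The 2 libraries had similar sums within each class, and the sums of the classes did not overlap. The 61 and 59 Xist UMIs of the low-mitochondrial class lay in 11 of 51 and 12 of 60 barcodes. Up to 25 and 18 of them were in 1 barcode, so these sums, like those of Malat1, rest on few barcodes. Kcnq1ot1, a nuclear antisense RNA that represses imprinted genes, was at 171 and 308 CPM in the low-mitochondrial class, against 1126 and 987 CPM in the shallow class (log2 fold change -1.75 ± 0.21, adjusted p = 5.4e-05). It was found in 6 of 51 and 6 of 60 low-mitochondrial barcodes, with up to 10 and 21 UMIs in 1 barcode. Neat1, the scaffold of nuclear paraspeckles, was at 17.1 and 16.2 CPM, against 79.9 and 76.0 CPM (-1.82 ± 0.56, adjusted p = 0.031). Those Neat1 values rest on few UMIs, and its adjusted p was 0.062 in barcodes of over 2500 UMIs and 0.22 after thinning. Tug1 was at 42.7 and 0 CPM, against 102 and 124 CPM (adjusted p = 0.037; 0.092 and 0.074 under the same 2 settings).

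Messenger RNAs known to be partly held in the nucleus by detained introns were mostly lower than in shallow barcodes. Of 23 tested, 13 were lower and 1 higher, with a median log2 fold change of -0.85. The summed list was at 5104 and 5030 CPM in the low-mitochondrial class. It was at 9997 and 9715 CPM in the shallow class and at 5844 and 5921 CPM in the deep class. Against the deep class 0 of the 23 passed the edgeR test. Their median log2 fold change there was -0.24, beside -0.08 over all genes, with 17 negative and 6 positive. Pnisr, a splicing-related protein, was at 120 and 186 CPM in the low-mitochondrial class, against 532 and 558 CPM in the shallow class (log2 fold change -1.44 ± 0.22, adjusted p = 0.00035). Clk1, a kinase of splicing factors, was at 68.3 and 97.2 CPM, against 323 and 305 CPM (-1.54 ± 0.27, adjusted p = 0.0011). Srsf7, a splicing factor, was the 1 higher gene, at 418 and 454 CPM, against 202 and 261 CPM (1.30 ± 0.18, adjusted p = 0.00018), and its adjusted p was 0.26 after thinning.

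Most short cytoplasmic messenger RNAs were higher than in shallow barcodes. The summed list was at 56079 and 62313 CPM in the low-mitochondrial class. It was at 39397 and 40098 CPM in the shallow class and at 54315 and 55263 CPM in the deep class. Of 28 on the list, all 28 were tested, 22 were higher and 0 lower, and the median log2 fold change was 0.96 (18 higher and 1 lower without scaling factors). Ptma, a small acidic protein of dividing cells, was at 4567 and 5662 CPM in the low-mitochondrial class, against 1606 and 1769 CPM in the shallow class (log2 fold change 1.98 ± 0.12, adjusted p = 1.9e-07). Eef1b2, a translation elongation factor, was at 2006 and 2082 CPM, against 759 and 978 CPM (1.63 ± 0.13, adjusted p = 2.6e-06). Tmsb4x, which binds free actin, was at 7102 and 8861 CPM, against 4109 and 5053 CPM (1.19 ± 0.12, adjusted p = 1.6e-05). In each of these genes both libraries of the low-mitochondrial class lay above both of the shallow class.

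Ribosomal protein genes made up 31.6% and 26.9% of non-mitochondrial UMIs in the low-mitochondrial class, 22.5% and 21.1% in the shallow class, and 28.3% and 24.7% in the deep class. Of 81 tested, 76 were higher than in shallow barcodes and 0 lower (58 higher and 0 lower without scaling factors), with a median log2 fold change of 0.88. Reads of these genes can be shared with near-identical pseudogenes, so single genes of the family are uncertain. Rps2 was at 5941 and 5929 CPM, against 1804 and 2581 CPM in the shallow class, and Rplp0 at 6274 and 7614 CPM, against 3133 and 3913 CPM. Over single barcodes of the class, the ribosomal protein share ran from 14.1% to 42.4% in library 1 and from 2.85% to 36.5% in library 2.

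Nuclear-encoded genes of oxidative phosphorylation, whose proteins are imported into the mitochondria, were higher although the transcripts encoded by the mitochondria themselves were the ones the class lacks by choice. Of 83 tested, 62 were higher than in shallow barcodes and 0 lower, with a median log2 fold change of 1.25 (50 higher and 0 lower without scaling factors). The summed list was at 29055 and 24729 CPM in the low-mitochondrial class. It was at 16588 and 15332 CPM in the shallow class and at 26698 and 23618 CPM in the deep class. Ndufa4, a subunit of the respiratory chain, was at 580 and 429 CPM in the low-mitochondrial class, against 180 and 173 CPM in the shallow class (1.93 ± 0.20, adjusted p = 1.5e-05). Cox6c, a subunit of cytochrome c oxidase, was at 598 and 583 CPM, against 284 and 192 CPM (1.72 ± 0.20, adjusted p = 4.1e-05).

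Genes of DNA replication were higher than in shallow barcodes as well. Of 25 S phase genes tested, 21 were higher and 0 lower (16 and 0 without scaling factors), with a median log2 fold change of 1.70. The summed list was at 5079 and 4738 CPM in the low-mitochondrial class. It was at 1685 and 1897 CPM in the shallow class and at 5014 and 5507 CPM in the deep class. Tyms, which makes thymidylate, was at 162 and 219 CPM in the low-mitochondrial class, against 28.9 and 34.5 CPM in the shallow class (2.97 ± 0.30, adjusted p = 1.2e-05). Pcna, the sliding clamp of DNA polymerase, was at 324 and 284 CPM, against 91.3 and 96.7 CPM (2.07 ± 0.23, adjusted p = 2.6e-05). Of 25 G2/M genes tested, 18 were higher and 1 lower. Their sum was 11856 and 10036 CPM in the low-mitochondrial class, against 5658 and 6344 CPM in the shallow and 10356 and 10430 CPM in the deep class. The 1 lower gene was Cenpe, a kinetochore motor, at 231 and 122 CPM, against 495 and 481 CPM (-1.09 ± 0.24, adjusted p = 0.0044; 0.053 after thinning). Mki67, a marker of cycling cells, was at 1110 and 284 CPM, against 1053 and 1222 CPM, so that the libraries differed, and did not pass (adjusted p = 0.46), though it did, as lower, under 4 of the alternatives.

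Among the genes with the largest changes by a fixed rule, 10 are described here as higher in the low-mitochondrial class. Ppa1, a pyrophosphatase, was at 128 and 138 CPM in the low-mitochondrial class, against 9.13 and 4.15 CPM in the shallow class (log2 fold change 4.51 ± 0.47, adjusted p = 1.6e-05). Kpna2, a nuclear import receptor, was at 145 and 227 CPM, against 16.0 and 24.9 CPM (3.61 ± 0.33, adjusted p = 5.7e-06). Cdk1, the kinase that drives mitosis, was at 290 and 437 CPM, against 44.9 and 52.5 CPM (3.30 ± 0.24, adjusted p = 8.7e-07). The rule also named Sdf2l1, a chaperone cofactor of the endoplasmic reticulum, Timm8a1, a chaperone of mitochondrial protein import, Cks1b, a Cdk subunit, Rrm2, which makes deoxynucleotides, Dctpp1, which removes damaged nucleotides, Mif, a cytokine, and C1qbp, a mitochondrial matrix protein, with log2 fold changes of 3.08 to 3.76. In the deep class Ppa1 was at 98.0 and 125 CPM, and 0 of these 10 genes passed the edgeR test against the deep class.

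The lower genes named by the rule began with immediate early genes, which cells switch on within minutes of a stimulus. Fosb had 0 UMIs in both libraries of the low-mitochondrial class, against 153 and 156 CPM in the shallow class, and was at least 12.4-fold lower with the floor of 3 UMIs over both libraries (adjusted p = 0.00015). Fos was at 0 and 16.2 CPM, against 256 and 264 CPM (-4.56 ± 0.60, adjusted p = 0.00011), and its 2 UMIs give a ratio of 0.0322 to the shallow level (exact 95% counting interval 0.00388 to 0.117). Jun was at 0 and 16.2 CPM, against 170 and 162 CPM (-3.92 ± 0.63, adjusted p = 0.0005), a ratio of 0.0498 (0.00601 to 0.181) on 2 UMIs. Of the 9 immediate early and stress genes tested, 3 were lower and 1 higher. The higher one was Hsp90aa1, a heat shock chaperone, at 2108 and 1507 CPM, against 741 and 826 CPM (1.59 ± 0.16, adjusted p = 1.5e-05).

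The other lower genes named by the rule were Gigyf1 (a translational repressor's partner), Tsix, Stx16 (a Golgi syntaxin), Rev3l (a DNA polymerase of translesion synthesis), Cxcr5, Dennd5b, Kdm6a (a histone demethylase), Rb1cc1 (an autophagy factor) and Dmtf1 (a transcription factor), with log2 fold changes of -4.29 to -3.28. Cxcr5, the chemokine receptor that draws B cells to follicles, was at 25.6 and 0 CPM in the low-mitochondrial class, against 159 and 202 CPM in the shallow class (-3.45 ± 0.61, adjusted p = 0.001), a ratio of 0.0716 (0.0147 to 0.211) on 3 UMIs. Tsix is antisense to Xist and the counting is not stated to use strand, so its value is uncertain. Each of these 9 genes had at most 3 UMIs per library in the class. Dmtf1 had an adjusted p of 0.060 in barcodes of over 2500 UMIs.

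Gene length moved with the calls. The length used was the median length of the gene's annotated transcripts. Of 776 tested genes under 1000 nt, 357 were higher and 9 lower, and of 2069 genes from 1000 to under 2000 nt, 493 were higher and 67 lower. Of 3239 genes from 2000 to under 4000 nt, 305 were higher and 222 lower, and of 1970 genes of 4000 nt or more, 71 were higher and 304 lower. The median transcript length over non-mitochondrial UMIs was 1345 and 1358 nt in the low-mitochondrial class, 1720 and 1736 nt in the shallow class, and 1385 and 1477 nt in the deep class. Many of the genes described as short, and many of those described as nuclear, differ in length too, and the part of length in their changes was not tested.

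**Figure D3:**
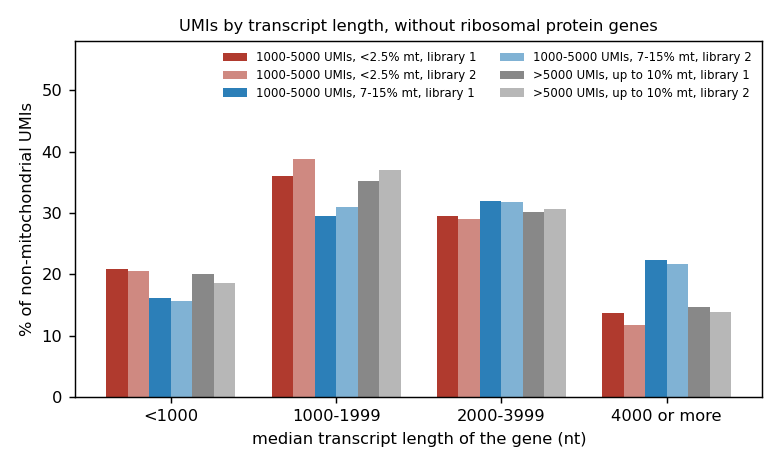
Share of non-mitochondrial UMIs (%, y axis) by median transcript length of the gene (nt, x axis), with ribosomal protein genes left out, in low-mitochondrial (red), shallow (blue) and deep (grey) barcodes of library 1 (dark) and library 2 (light). Genes of 4000 nt or more take 13.6% and 11.7% in the low-mitochondrial class, 22.3% and 21.6% in the shallow class and 14.6% and 13.8% in the deep class.

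Transcripts of the B lineage were found in nearly all low-mitochondrial barcodes. Of 9 B lineage genes (the list that includes the antigen receptor's signalling chains and B cell transcription factors), at least 1 UMI was present in 50 of 51 and 59 of 60 low-mitochondrial barcodes at 700 UMIs each, against 401 of 402 and 238 of 238 shallow and 1319 of 1324 and 1032 of 1032 deep barcodes. The amount was smaller than in shallow barcodes, with medians of 7 and 7 UMIs of 700 in the low-mitochondrial class, 21 and 21.5 in the shallow class, and 11 and 11 in the deep class. Cd74, which macrophages also express, accounted for many of these UMIs. Without it, a UMI of the other 8 genes was present at 700 UMIs in 43 of 51 and 54 of 60 low-mitochondrial barcodes, 400 of 402 and 238 of 238 shallow barcodes, and 1274 of 1324 and 994 of 1032 deep barcodes. As a background, the same was counted in the 9 and 4 barcodes with at least 5 UMIs of the macrophage genes C1qa, C1qb, C1qc and Lyz2 (median depths of 4694 and 4499 UMIs; 1 of them in the low-mitochondrial class), a set chosen after its values were seen. Such a UMI was present in 4 of the 9 and 4 of the 4, with up to 5 UMIs of 700 in library 1 and 7 to 13 in library 2. The medians were 0 and 8 UMIs in this set, 2 and 2 in the low-mitochondrial class, and 8 and 9 in the shallow class. In library 2 the set thus held about as much B lineage RNA as shallow barcodes. So small and mixed a set cannot decide whether the presence of a UMI sets the low-mitochondrial barcodes apart from a background. All 9 B lineage genes were tested, and 9 were lower than in shallow barcodes, with a median log2 fold change of -1.21. Because the classes hold different cells, fewer cells with a transcript and fewer transcripts per cell cannot be told apart in the sums.

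Cd79b, a receptor chain that signals for surface immunoglobulin, was at 956 and 1385 CPM in the low-mitochondrial class, against 3536 and 3546 CPM in the shallow class (log2 fold change -1.22 ± 0.15, adjusted p = 4.9e-05). Ebf1, a transcription factor of the B lineage, was at 213 and 356 CPM, against 1615 and 1394 CPM (-2.00 ± 0.23, adjusted p = 3.3e-05). In the deep class Cd79b was at 1304 and 1360 CPM and Ebf1 at 546 and 389 CPM, and neither passed the edgeR test against the deep class.

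Of 10 genes of antigen presentation on MHC class II tested, 5 were lower (Ciita, Cd74, H2-Ab1, H2-DMb1 and H2-Ob), 1 was higher and 4 did not pass (8 lower and 0 higher without scaling factors). Ciita, the master activator of the class, was at 137 and 122 CPM in the low-mitochondrial class, against 658 and 561 CPM in the shallow class (-1.86 ± 0.22, adjusted p = 4.7e-05). Cd74, the invariant chain, was at 6683 and 9469 CPM, against 17585 and 18350 CPM (-0.78 ± 0.13, adjusted p = 0.00087). H2-Aa, the higher gene, was at 1169 and 1766 CPM, against 1139 and 1465 CPM (0.55 ± 0.14, adjusted p = 0.0097), and turned to -0.22 (adjusted p = 0.20) against shallow barcodes of 7% to 10% mitochondrial share. The H2-Aa call was also lost under 7 other alternatives, such as after thinning (adjusted p = 0.19) and without scaling factors (adjusted p = 0.34).

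Summed, immunoglobulin constant genes were at 8698 and 10603 CPM in the low-mitochondrial class, 15031 and 15833 CPM in the shallow class, and 12902 and 13067 CPM in the deep class. At 700 UMIs they were found in 50 of 51 and 59 of 60 low-mitochondrial barcodes, 397 of 402 and 238 of 238 shallow barcodes, and 1318 of 1324 and 1025 of 1032 deep barcodes. Of 11 tested (the list counts Jchain, the joining chain), 4 were lower than in shallow barcodes (Ighm, Ighd, Ighg1 and Ighg3) and 1 higher (5 and 0 without scaling factors). Ighm, the heavy chain of IgM, was at 879 and 1418 CPM in the low-mitochondrial class, against 2274 and 2788 CPM in the shallow class (-0.76 ± 0.16, adjusted p = 0.0041). Ighg3 was at 8.54 and 0 CPM, against 96.6 and 101 CPM (-4.20 ± 0.80, adjusted p = 0.0019), and rests on 1 UMI in the class, a ratio of 0.0424 (0.00107 to 0.239). Igkc, the kappa light chain, was at 5523 and 6464 CPM, against 9197 and 9548 CPM, and did not pass (-0.26 ± 0.12, adjusted p = 0.14), although it did, as lower, under 9 of the alternatives, such as without scaling factors (-0.65, adjusted p = 0.00014). The subclass genes of IgG are close in sequence, so reads may be split between them.

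Jchain was the higher gene, at 470 and 470 CPM in the low-mitochondrial class, against 427 and 404 CPM in the shallow class (0.56 ± 0.17, adjusted p = 0.029). It was at 867 and 893 CPM in the deep class, and its log2 fold change against shallow barcodes was 0.17 without scaling factors (adjusted p = 0.48) and -0.16 in barcodes of over 2500 UMIs (adjusted p = 0.77). Its call was lost under 7 alternatives in all besides that reversal. Mzb1, a chaperone of antibody assembly, was at 538 and 899 CPM, against 358 and 442 CPM in the shallow class (1.23 ± 0.18, adjusted p = 0.0002), so that of 7 plasmablast genes tested 3 were higher (Mzb1, Jchain and Creld2) and 0 lower.

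Of 11 germinal center genes tested, 1 was higher (Gcsam) and 2 lower (Bcl6 and Mybl1; 0 higher and 4 lower without scaling factors), with a median log2 fold change of 0.07 (-0.32 without scaling factors). Bcl6, the transcriptional repressor that defines germinal center B cells, was at 25.6 and 64.8 CPM in the low-mitochondrial class, against 200 and 228 CPM in the shallow class (-1.82 ± 0.38, adjusted p = 0.0035). Mybl1, a transcription factor of dividing germinal center cells, was at 171 and 122 CPM, against 420 and 316 CPM (-0.95 ± 0.23, adjusted p = 0.009; 0.060 after thinning). At 700 UMIs, at least 1 UMI of the germinal center list was present in 68.6% and 75.0% of low-mitochondrial barcodes, 86.3% and 83.2% of shallow barcodes, and 74.8% and 77.9% of deep barcodes.

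Of 7 naive B cell genes tested, 3 were lower (Ighd, Btg1 and Fcer2a) and 0 higher. Of these, Fcer2a, the low-affinity IgE receptor, was at 76.8 and 122 CPM in the low-mitochondrial class, against 331 and 392 CPM in the shallow class (-1.46 ± 0.28, adjusted p = 0.0018). Of 3 marginal zone genes tested, 1 was lower (S1pr3, at 0 UMIs in the class). Of 5 memory genes tested, 0 passed by edgeR or DESeq2, and 1 had an unadjusted p under 0.05. Of 16 actin cytoskeleton genes tested, 9 were higher and 1 lower (Lcp1), and Actb, at 12667 and 11591 CPM, against 13011 and 13104 CPM, did not pass (0.28 ± 0.12, adjusted p = 0.12; -0.11 without scaling factors). Of 11 apoptosis genes tested, 3 were higher (Bax, Bak1 and Cycs) and 0 lower. Bax, which opens the outer mitochondrial membrane, was at 137 and 227 CPM, against 67.7 and 74.6 CPM (1.72 ± 0.28, adjusted p = 0.00052). Bax had an adjusted p of 0.11 after thinning and 0.16 in barcodes of over 2500 UMIs. Of 15 genes of the endoplasmic reticulum, 6 were higher and 1 lower (Hspa5).

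**Figure D4:**
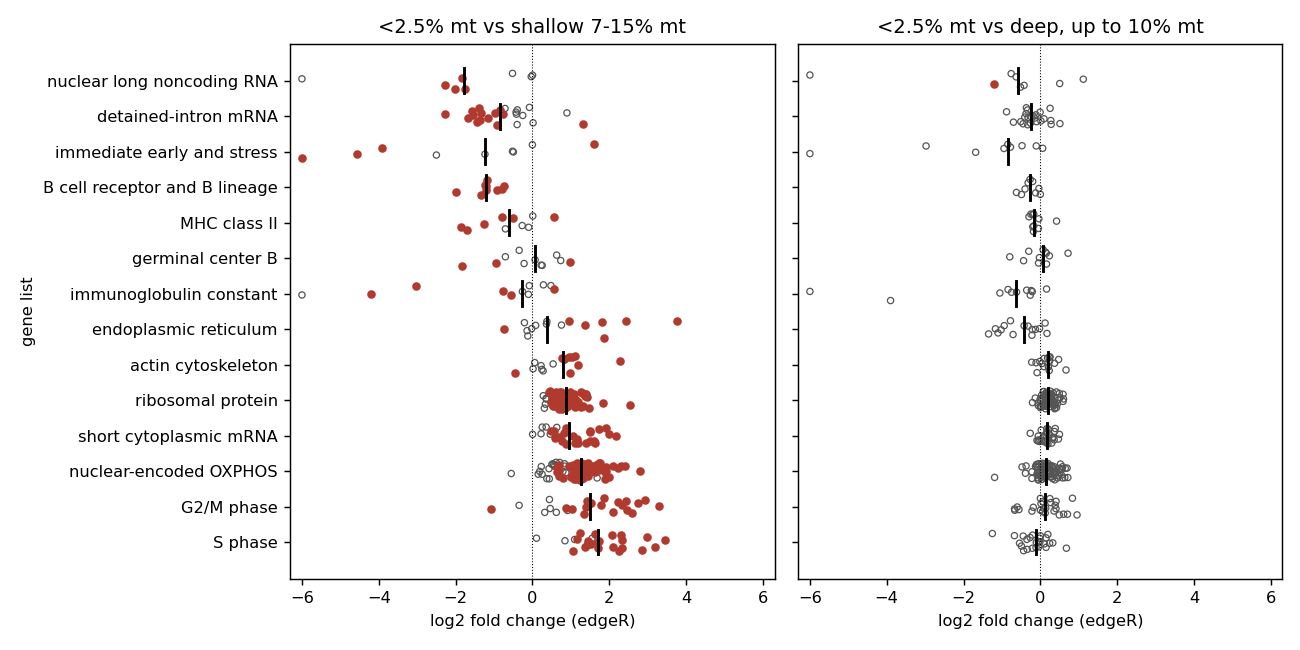
Log2 fold change (x axis, edgeR) of each tested gene of the lists on the y axis, low-mitochondrial against shallow barcodes (left) and low-mitochondrial against deep barcodes (right), with genes at an adjusted p under 0.05 filled, other genes open, list medians as vertical bars, Malat1 and Gm42418 left out and genes below -6 (0 UMIs in the class) drawn at -6. On the left, 76 of 81 ribosomal protein genes are filled and to the right of 0, and on the right 0 of 81 are filled.

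Against the deep barcodes, few genes passed. Of 8062 tested, 5 (0.062%) had an adjusted p under 0.05, 3 higher (0.0372%) and 2 lower (0.0248%), with 653 at an unadjusted p under 0.05 and 23 called by DESeq2. The small class limits what can be called: on simulated counts of the same depth, 26.6% of 2-fold changes and 57.9% of 4-fold changes were recovered over 7561 genes in this comparison. The simulation gave every gene the same spread and the classes no difference besides the planted changes, so these shares need not hold for the real counts. The median log2 fold change was -0.08 over all genes, 0.19 for the 81 ribosomal protein genes, 0.17 for the 28 short cytoplasmic genes, 0.14 for the 83 genes of oxidative phosphorylation, -0.11 for the 25 S phase genes and -0.27 for the 9 B lineage genes. Other lists lay further below 0: the median was -0.85 for the 9 immediate early and stress genes, -0.62 for the 11 immunoglobulin constant genes (-0.36 with Igha, which had 0 UMIs in the class, set at its bound) and -0.57 for the 8 nuclear RNAs without Malat1 and Gm42418 (-0.52 with Lncpint at its bound). Of these, 0, 0 and 1 (Xist) passed by edgeR, 2, 5 and 3 had an unadjusted p under 0.05, and DESeq2 called 0, 2 and 1, each lower in the class. By edgeR 0 genes of the first 5 lists passed, while 26 ribosomal protein, 7 short cytoplasmic, 11 oxidative phosphorylation, 3 S phase and 2 B lineage genes had an unadjusted p under 0.05, and DESeq2 called 4 ribosomal protein genes as higher.

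The 2 lower genes were Xist and Ptprc. Xist was at 521 and 478 CPM in the low-mitochondrial class, against 1346 and 1055 CPM in the deep class (log2 fold change -1.20 ± 0.17, adjusted p = 0.012), and at 700 UMIs it was found in 11.8% and 13.3% of low-mitochondrial barcodes and 61.0% and 52.5% of deep barcodes. With the class widened to 4% mitochondrial UMIs, the Xist change was -0.08 (adjusted p = 0.91). Ptprc, the phosphatase CD45 found on all white blood cells, was at 154 and 186 CPM, against 448 and 425 CPM (-1.29 ± 0.21, adjusted p = 0.0496).

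The 3 higher genes were Gm42418, AY036118 and Hmox1. Gm42418 (chr17:39846958-39848788) and AY036118 (chr17:39847113-39848035) overlap at a locus with ribosomal RNA sequence, and their reads cannot be told apart from each other or from ribosomal RNA. Gm42418 was at 5983 and 4811 CPM in the low-mitochondrial class, against 2089 and 2020 CPM in the deep class (1.45 ± 0.12, adjusted p = 0.00014), and AY036118 at 495 and 462 CPM, against 174 and 166 CPM (1.56 ± 0.17, adjusted p = 0.00068). In the shallow class Gm42418 was at 9446 and 8717 CPM, above both. In barcodes of over 2500 UMIs, AY036118, Xist and Ptprc did not pass either (log2 fold changes of 0.86, -0.70 and -0.85, adjusted p = 0.30, 0.25 and 0.31). With only the low-mitochondrial and deep classes in the fit, AY036118, Xist and Ptprc did not pass (adjusted p = 0.13, 0.13 and 0.62), and Hmox1 was not called. DESeq2 called the other 4 genes and gave no adjusted p for Hmox1.

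Genes of the endoplasmic reticulum lay mostly below their deep values, although 0 of 15 passed by edgeR (6 at an unadjusted p under 0.05, and 2 called as lower by DESeq2): 13 of the 15 fold changes were negative, with a median of -0.42, beside -0.08 over all genes. Hspa5, the main chaperone of the endoplasmic reticulum, was at 222 and 138 CPM in the low-mitochondrial class, against 379 and 463 CPM in the deep class (-1.17 ± 0.23, adjusted p = 0.17; 0.013 without scaling factors and 0.020 by DESeq2). Calr, a calcium-binding chaperone there, was at 248 and 308 CPM, against 524 and 591 CPM (-0.94 ± 0.17, adjusted p = 0.10; 0.010 and 0.013 under the same 2 settings). Hspa5 passed under 7 and Calr under 8 of the alternatives in all.

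Macrophage genes came from single barcodes. Of the complement genes C1qa, C1qb and C1qc and the lysozyme gene Lyz2, any UMI was found in 1 of 51 low-mitochondrial barcodes of library 1 (7 UMIs) and 1 of 60 of library 2 (2 UMIs), with C1qb and Lyz2 at 0 in both libraries. In the shallow class, 1 of 402 and 0 of 238 barcodes held such a UMI, and in the deep class 7 of 1324 and 1 of 1032. The count of 0 of 238 allows a share of up to 1.26% by the floor of 3 counts, and of up to 1.54% by its exact 95% interval. As shares, 1.96% (exact 95% interval 0.0496% to 10.4%) and 1.67% (0.0422% to 8.94%) of low-mitochondrial barcodes overlap the 0.249% (0.00630% to 1.38%) of shallow barcodes of library 1.

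The same 2 barcodes held all of the class's Hmox1, the heme oxygenase of macrophages that take up red cells, with 13 UMIs in library 1 and 23 in library 2. They also held all of its Spic, the transcription factor of splenic red pulp macrophages, with 1 and 5 UMIs. Hmox1 was at 111 and 186 CPM in the low-mitochondrial class, against 7.61 and 0 CPM in the shallow class and 5.74 and 4.06 CPM in the deep class. It passed the filter on low counts only through the low-mitochondrial sums, where it is high, and its UMIs there come from 1 barcode in each library, so its calls are given as a description with no test. Both barcodes were nearly at the lower limit of depth, with 1000 and 1134 UMIs, and had 0 and 1 Malat1 UMIs. They held 0 UMIs of Igkc, Ighm and Ms4a1, while the barcode of library 1 held 7 UMIs of Cd74, and that of library 2 held 1 of Cd79a among 2 B lineage UMIs and 1 UMI of the immunoglobulin constant list. Without every barcode that held a UMI of the 4 macrophage genes, 1077 genes were higher and 895 lower than in shallow barcodes, which is 54.6% higher instead of 67.0%. This setting left 50 and 59 barcodes in the class. The median log2 fold change of all genes was -0.20 there instead of -0.04. The zero point of the scaling thus moved too, and the part of the macrophage barcodes in the changed split was not tested.

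Aif1, proposed as a marker, was found in 3 of 51 and 3 of 60 low-mitochondrial barcodes with at most 2 and 3 UMIs, against 19 of 402 and 9 of 238 shallow and 161 of 1324 and 106 of 1032 deep barcodes. Plac8 was at 239 and 16.2 CPM in the low-mitochondrial class, against 11.4 and 16.6 CPM in the shallow class and 30.9 and 36.1 CPM in the deep class. In library 1, its 28 UMIs lay in 2 of 51 barcodes, with 19 and 9 UMIs, and the same barcodes held 24 and 36 UMIs of Igkc and 51 and 60 of Cd74. The 3 proposed markers thus did not define the class: Malat1 was low in most barcodes, and Aif1 and Plac8 were found in few.

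Of the markers of other cell types, all 8 monocyte, 8 neutrophil, 6 natural killer and 5 platelet markers were at 0 in both libraries of the class, and so were 9 of 10 T cell, 6 of 9 erythroid, 6 of 7 stromal, 5 of 8 dendritic, 2 of 3 follicular dendritic and 7 of 14 macrophage markers. The monocyte, neutrophil, natural killer and platelet lists each summed to at most 1.52 CPM in the shallow and 2.70 CPM in the deep class. In the low-mitochondrial class 1 UMI is worth about 8 CPM, so these zeros cannot show that such cells were missing from it. The summed level of the T cell list was 51.2 and 24.3 CPM in the low-mitochondrial class, 88.2 and 108 CPM in the shallow class, and 58.1 and 65.8 CPM in the deep class. For the erythroid list it was 42.7 and 154 CPM, against 48.7 and 67.7 CPM in the shallow and 50.7 and 45.7 CPM in the deep class, and for the dendritic list 282 and 292 CPM, against 232 and 304 CPM and 208 and 231 CPM. Of 3 dendritic markers tested, 1 was higher than in shallow barcodes, Bst2, a gene of plasmacytoid dendritic cells that other cells also switch on, at 59.7 and 89.1 CPM, against 13.7 and 24.9 CPM (2.42 ± 0.48, adjusted p = 0.0023; 0.18 after thinning and 0.10 in barcodes of over 2500 UMIs). For the macrophage list it was 196 and 284 CPM, against 38.0 and 13.8 CPM in the shallow and 37.9 and 12.5 CPM in the deep class. The part of cells of these types in the results on other genes was looked at only for macrophage genes, by leaving those barcodes out. In that setting the median fold change of all genes also moved.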

How the data were processed

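Raw UMI counts per gene and barcode (10x Genomics 3′ kit, version 3, per the labels' protocols) were used as deposited. Per the file headers the software was Cell Ranger 3.0.2, and mm10 is the build in the submitters' processing notes. Its annotation and cell calling are not given in the sources used here. Coordinates and transcript lengths are of GENCODE M21 on mm10, matched by identifier for 30766 of 30905 genes, counted from 1.

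The class, its comparisons and the gene lists were chosen with earlier results of these data known. The 13 mitochondrial genes were left out of the sums and totals. Sums per class and library (6 sums, 3 classes) were fitted with edgeR 4.0.16 (TMM scaling, filterByExpr, quasi-likelihood, R 4.3.3), with the library as a block, since each library holds every class; residual degrees of freedom were 2. The test was run on simulated data first: 24.5% of 2-fold and 55.8% of 4-fold changes were recovered in the comparison with shallow barcodes, and 2.56% of calls were false. These data had the same spread for every gene and no class difference besides the planted changes, so the rates need not hold for the real counts. Genes were named by rule: in each comparison, the 12 highest and 12 lowest fold changes among genes passing at 0.05 with the same sign in both libraries and at least 100 CPM in 1 class, besides genes of the lists. Genes of the lists named with values were chosen after their values were seen. Plac8 met the rule but is described without a test.

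Exact intervals are Clopper-Pearson at 95%, and they and the floor of 3 UMIs cover counting error only. The SE of an edgeR fold change was derived as its absolute log2 value divided by the square root of the quasi-likelihood F statistic. Scrublet in scanpy 1.11.5 called 0 doublets among 8385 and 7672 barcodes and so did not work; doublets were not removed. Alternatives were other limits on mitochondrial share and depth, thinning to 700 UMIs, other scaling, filters and designs, DESeq2 1.42.0, and barcodes left out.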

Additional observations from a re-analysis of the deposited data

How the results depend on the processing

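Against the shallow class, 1829 genes were called, and 1117 in barcodes of 1000 to 2500 UMIs, 972 in barcodes of over 2500 UMIs and 943 after thinning to 700 UMIs. Against the deep class, 5 were called, and 86 with a limit of 1.5% mitochondrial UMIs, 22 with 4%, 30 after thinning, 20 without the highest 6% of doublet scores, 11 without scaling factors, 44 without a filter on low counts, 1 with 2 classes in the fit and 23 by DESeq2. In alternatives chosen after seeing the data, 42 were called with class barcodes of 1000 to 2500 UMIs, and 12 and 10 with shallow barcodes of 7% to 10% and of 10% to 15% mitochondrial share in the fit. The cause of these moves was not tested. Without the replicate block, 2051 and 5 genes were called. Directions reversed for H2-Aa (-0.22 against shallow barcodes of 7% to 10% mitochondrial share), for Jchain (-0.16 in barcodes of over 2500 UMIs), for the uncalled gene Actb (-0.11 without scaling factors), and for the share of macrophage genes, low-mitochondrial minus shallow (-0.00269 percentage points in barcodes of over 2500 UMIs, -0.000319 without barcodes holding macrophage UMIs). Among the other named genes, counted once per gene and setting against the shallow class, 780 values kept their direction and side of the threshold, 12 lost the call and 13 gained one, and H2-Aa and Jchain each lost the call under 7 more alternatives. The alternative with no gene minimum for the shallow class kept the same 402 and 238 barcodes, so its values could not differ. With 1 library left out no test can be made, since no residual degrees of freedom remain. Precision is limited by the 51 and 60 barcodes of the class, and by 8 CPM being worth about 1 UMI there.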

Other observations

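Barcodes with under 2.5% mitochondrial UMIs also occurred above 5000 UMIs, 30 in library 1 and 22 in library 2, with median depths of 8967 and 10290 UMIs. The deep class had no lower limit on mitochondrial share, with lowest shares of 0.0351% and 0.0505%, so it took in such barcodes. Malat1 was at 0 UMIs in 9 of these 30 and 6 of these 22, and at 10 or more in 15 and 14. Its summed level was 5432 and 3361 CPM, that of Xist 1058 and 972 CPM, and that of Ptma 5178 and 5846 CPM. Igkc was at 24838 and 5886 CPM and Ighm at 8674 and 948 CPM, so that the libraries differed in both.

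One low-mitochondrial barcode of library 2, found after its values were seen, held 25 UMIs of Igfbp7 and 5 each of Plvap, Aplnr, Gpihbp1 and Sparc, genes of blood vessel endothelium, among 1542 UMIs, with 1 UMI of Malat1 and 2 of Igkc.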
